A study of Mus musculus with 9 samples.

Results

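The genes described here encode the machinery with which a presynaptic terminal stores, docks, primes and releases synaptic vesicles. They were chosen by name, with earlier results of these data known. The list held 38 gene symbols, and all 38 were found among the 24054 rows of the deposited expression table. Of these, 37 had a value above 1 in at least 3 of the 9 libraries. Those 37 are among the 12923 genes tested. The list holds 11 calcium sensors of the synaptotagmin family, 7 vesicle phosphoproteins and membrane proteins, 6 SNAREs and complexins, 7 active zone scaffolds and regulators, 5 priming factors and 2 vesicular glutamate transporters. Syt2, a fast calcium sensor, was the member that did not pass. It stood at 0.995, 0.832 and 0.916 CPM in hypoxia with T3, at 0.791, 0.793 and 0.731 CPM in hypoxia and at 1.08, 1.12 and 0.572 CPM in normoxia, so 2 libraries were above 1. Unc13c, the member that passed by the least, was above 1 in 7 libraries.

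A synaptic vesicle is filled with transmitter by a transporter in its membrane, is held near the release site by synapsins and by the scaffolds of the active zone, and is made ready for fusion by priming factors of the Munc13 (Unc13) and CAPS (Cadps) families. Fusion is driven by the SNARE proteins synaptobrevin (Vamp2), syntaxin 1 (Stx1a) and SNAP-25, is held back and assisted by complexins, and is triggered when calcium binds a synaptotagmin. In cortical glutamatergic neurons synaptotagmin 1 (Syt1) is the known sensor for fast synchronous release.

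The cells were primary cortical neurons of C57BL/6 mice of genotype Wt, used after 6 days of culture, in 3 groups of 3 libraries. One group was held at 0.2% oxygen for 7 hours with 10 nM T3, the active thyroid hormone triiodothyronine, in the medium. The second group had the same hypoxia without T3, and the control group stayed in normoxia. There was no group with T3 in normoxia, so an effect of T3 outside hypoxia was not measured. The labels do not state that replicates are separate cultures or animals, so every p-value reflects library-to-library spread that could be technical.

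Stranded libraries of polyadenylated RNA had been sequenced, and each value is in CPM, a gene's read count relative to the size of its library, after scaling of the libraries by the trimmed mean of M-values (TMM). The libraries keep the numbers of their column headers: 11, 12 and 13 for hypoxia with T3, 7, 8 and 9 for hypoxia, and 1, 2 and 3 for normoxia. Depth lay between 17182338 reads in hypoxia 7 and 33937842 reads in normoxia 2, and 1 read was worth 0.0302 to 0.0565 CPM. The neuron markers were present in every library and the 8 microglial markers were below 1 CPM in all of them, while 9 of 10 astrocyte markers and all 8 markers of the oligodendrocyte lineage passed the filter on low values, so glial transcripts were present. The summed neuron markers came to 5851 to 5937 CPM in hypoxia with T3, 5938 to 6512 CPM in hypoxia and 7612 to 8089 CPM in normoxia. The summed astrocyte markers came to 268 to 372 CPM in hypoxia with T3, 204 to 395 CPM in hypoxia and 186 to 299 CPM in normoxia. Slc1a2 made up much of these sums, at 139 to 198 CPM over the libraries. Slc1a3, the next highest, ranged over 34.0 to 73.7 CPM in hypoxia with T3. It ranged over 16.4 to 82.5 CPM in hypoxia and 5.00 to 45.1 CPM in normoxia. In bulk RNA a loss of cells of a type and a loss of RNA per cell cannot be told apart.

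The first comparison asks what 7 hours of hypoxia did to these transcripts. Of the members 11 fell and none rose: the priming factors Cadps2, Cadps and Unc13a, all 4 RIM genes (Rims1, Rims2, Rims3 and Rims4), the synaptotagmins Syt1 and Syt16, synapsin III (Syn3) and syntaxin 1A (Stx1a). The greatest change was that of Cadps2, which in hypoxia was at 0.289 of its normoxia mean. Thus 11 of 37 members (29.7%) passed a limma adjusted p of 0.05, all of them lower, where 33.6% of all tested genes passed in either direction, 19.3% lower and 14.3% higher. With both directions pooled, the share of members called was near that of all genes under the scaling as deposited. By direction it was above that of all genes for lower calls and below it for higher calls. At an unadjusted p under 0.05 there were 18 members. On recovered reads edgeR called 11 lower and 2 higher (Syt5 and Vamp2), and DESeq2 called 11 lower and 3 higher (Syt5, Syt13 and Vamp2). Over all genes edgeR called 2143 lower and 2147 higher, and DESeq2 2429 lower and 2027 higher. The median log2 change of (CPM + 1) was -0.02 over the members and -0.00 over all tested genes.

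Which members passed, and the balance of higher and lower calls, depended on how the libraries were scaled. The deposited columns sum to 945822 to 1091200, and when every library was rescaled to the same sum the median log2 change over all genes became 0.13. Under that scaling 8 members (21.6%) were lower and 13 (35.1%) higher, where 9.53% of all genes were lower and 30.7% higher. Under quantile normalization 10 members were lower and 10 higher (27.0% each), where 16.4% of all genes were lower and 17.0% higher. As deposited the counts were 11 and 0. With both directions pooled, 56.8% of members and 40.3% of all genes passed with equal column sums. With quantile normalization 54.1% of members and 33.4% of all genes did. Rims1, Rims2, Rims3, Syt1, Syn3, Stx1a, Cadps and Cadps2 were lower under each of these scalings. Rims4 lost its call with equal column sums (adjusted p = 0.063), and Syt16 and Unc13a lost theirs with both equal column sums (adjusted p = 0.26 for Syt16 and 0.50 for Unc13a) and quantile normalization (adjusted p = 0.059 and 0.27). The members higher with equal column sums were Syt5, Syt6, Syt7, Syt11, Syt13, Cplx1, Cplx2, Vamp1, Vamp2, Syn2, Syp, Bsn and Rab3a. Together the members made up 1.02% to 1.06% of the column sum in hypoxia with T3, 1.00% to 1.05% in hypoxia and 0.973% to 1.00% in normoxia.

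**Figure D1:**
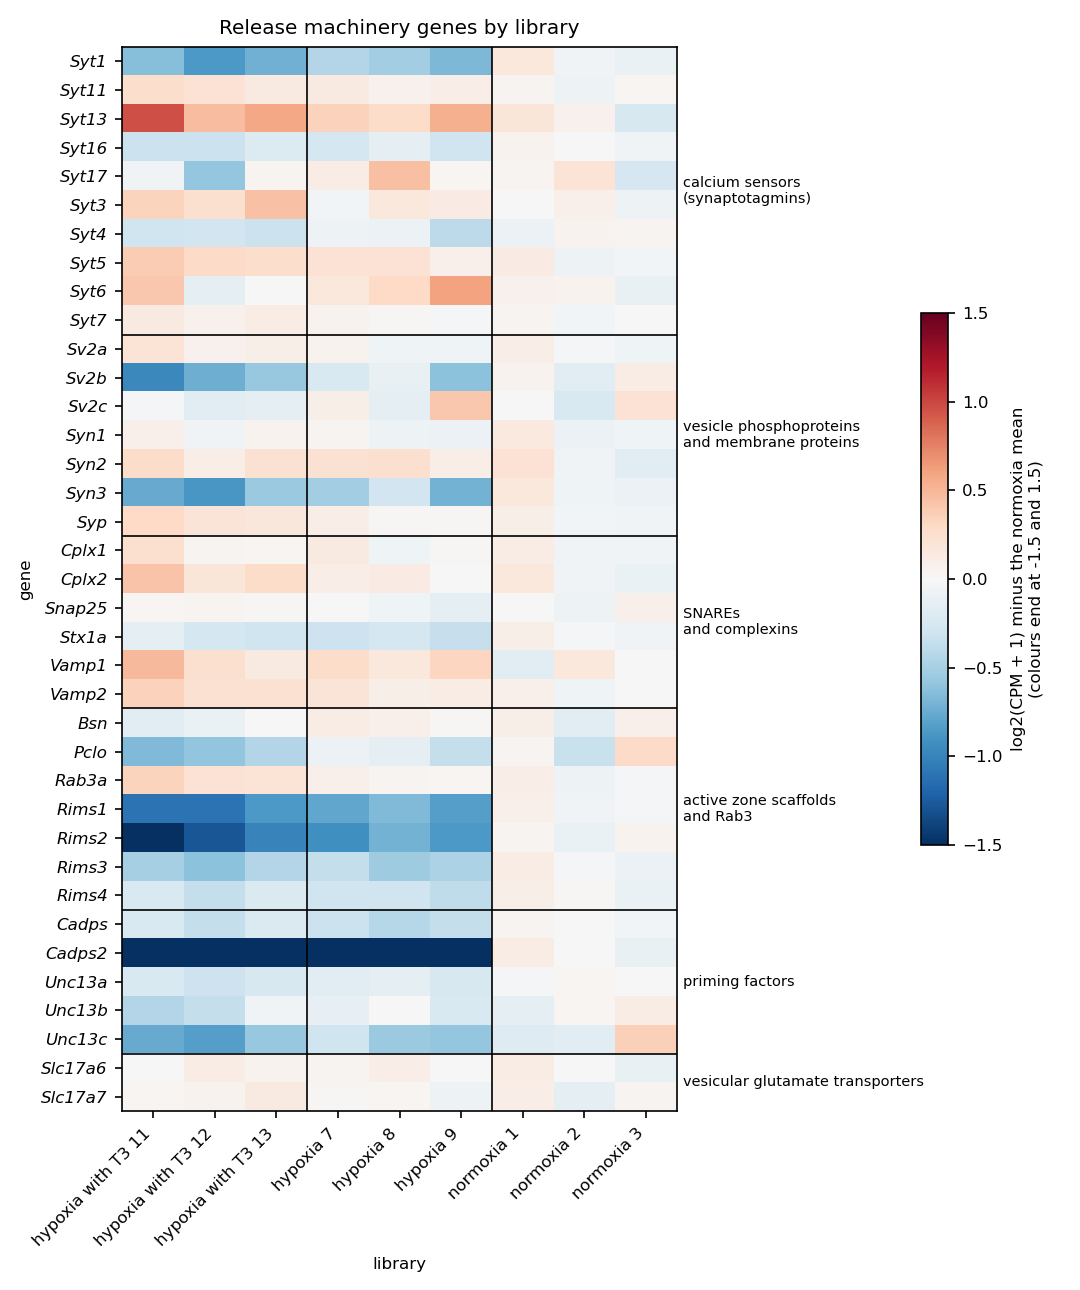
Each row is 1 of the 37 members that passed the filter, grouped by role, and each column is 1 library; the colour is log2(CPM + 1) minus the mean of that value over the 3 normoxia libraries, blue for lower and red for higher. Cadps2 is past the blue end of the scale in all 6 hypoxic libraries, Rims1 and Rims2 are deeper blue in hypoxia with T3 than in hypoxia, and most other rows stay pale.

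As deposited, 3 of the 5 priming factors fell in hypoxia and none rose. The counts of each role, here and below, stand beside 19.3% of all genes lower and 14.3% higher. The shares of all genes under the other scalings are given above. For the priming factors the split was 2 lower and 0 higher with equal column sums, and 3 and 0 with quantile normalization. Cadps2 encodes CAPS2, a calcium-dependent activator protein for secretion that primes dense-core and synaptic vesicles. It had 24.2, 21.7 and 21.9 CPM in hypoxia with T3, 21.9, 20.8 and 22.0 CPM in hypoxia and 80.8, 74.3 and 68.9 CPM in normoxia. The 6 hypoxic libraries lay close together and far below the 3 normoxic ones. Its log2 change in hypoxia against normoxia was -1.74 (SE 0.076, limma adjusted p = 1.7e-07). The gene spans 577 kb of chromosome 6 on the minus strand (chr6:23262773-23839421, GRCm38).

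Cadps, which encodes the related protein CAPS1, had 223, 204 and 225 CPM in hypoxia with T3, 210, 194 and 204 CPM in hypoxia and 269, 262 and 254 CPM in normoxia. All hypoxic libraries were again below all normoxic ones, by a smaller step: the log2 change in hypoxia was -0.37 (SE 0.054, limma adjusted p = 0.00068). Unc13a encodes Munc13-1, the main priming factor of cortical glutamatergic synapses. It had 464, 438 and 460 CPM in hypoxia with T3, 487, 492 and 457 CPM in hypoxia and 534, 554 and 539 CPM in normoxia. The hypoxia and normoxia libraries did not overlap, and the log2 change was -0.18 (SE 0.047, limma adjusted p = 0.013). That call was lost without library hypoxia 9 (adjusted p = 0.057) as well as under the scalings named above. Exons of Unc13a overlap those of Colgalt1 on the other strand by 495 bases, and the strand setting of the counting is not given in the sources used here.

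The other priming factors did not pass in hypoxia. Unc13b, which encodes Munc13-2, ranged over 28.5 to 37.7 CPM in hypoxia with T3, 33.1 to 38.9 CPM in hypoxia and 35.5 to 42.3 CPM in normoxia, with overlap between all groups. Unc13c, which encodes Munc13-3 and is best known from the cerebellum, ranged over 0.798 to 1.14 CPM in hypoxia with T3, 1.14 to 1.58 CPM in hypoxia and 1.79 to 3.07 CPM in normoxia. Its hypoxia and normoxia libraries did not overlap, but its estimate of -0.48 missed the threshold (limma adjusted p = 0.0503), at a level near the filter.

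Promoter sequence is shown for the member with the greatest change and for the next members that fell most and had an entry in the promoter table, to let the starts of genes that moved together be compared. Each window runs from 250 bases before to 50 bases after an annotated start, on the gene's own strand, and comes from RefSeq (GRCm38.p6). The windows are those of Cadps2 (chr6:23839372-23839671, minus strand), Rims1 (chr1:22806109-22806408, minus strand) and Syt1 (chr10:109010926-109011225, minus strand). Capitals mark ACGTG, read on either strand, the core of the hypoxia response element to which hypoxia-inducible factors bind.
Cadps2: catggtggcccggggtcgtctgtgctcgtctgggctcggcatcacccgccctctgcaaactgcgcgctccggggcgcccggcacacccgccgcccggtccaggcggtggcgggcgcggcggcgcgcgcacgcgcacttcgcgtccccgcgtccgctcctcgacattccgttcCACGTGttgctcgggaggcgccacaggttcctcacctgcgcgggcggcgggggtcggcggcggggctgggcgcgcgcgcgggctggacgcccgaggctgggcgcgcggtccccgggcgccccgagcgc
Rims1: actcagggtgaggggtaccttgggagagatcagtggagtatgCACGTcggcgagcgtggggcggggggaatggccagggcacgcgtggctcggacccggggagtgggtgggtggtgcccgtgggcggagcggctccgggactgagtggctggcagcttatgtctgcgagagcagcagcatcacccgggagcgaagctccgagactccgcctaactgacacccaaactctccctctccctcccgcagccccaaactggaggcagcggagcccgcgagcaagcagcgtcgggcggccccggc
Syt1: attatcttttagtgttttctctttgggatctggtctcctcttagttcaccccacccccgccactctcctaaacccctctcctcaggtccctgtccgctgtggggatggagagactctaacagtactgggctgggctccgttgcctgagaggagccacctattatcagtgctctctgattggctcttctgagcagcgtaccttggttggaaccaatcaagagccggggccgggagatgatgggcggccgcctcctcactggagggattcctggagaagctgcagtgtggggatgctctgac
The Cadps2 window holds the palindrome CACGTG, which reads as the core on both strands and was counted as 1 match in each direction. The Rims1 window holds the core once and the Syt1 window shown does not hold it. Of the 38 members 28 had at least 1 window, 38 windows in all, and 11 of these windows (9 members) held the core on either strand. Of all 32851 windows given by RefSeq, 6447 held it (19.6%). The half-site AGGTCA, to which thyroid hormone receptors bind, was searched on both strands and was in 4 member windows (3 members) and in 16.3% of all windows. Among those 4 member windows is another Syt1 window (chr10:109009062-109009361), which is not shown and lacks the core. The others are a window of Syt2, which did not pass the filter, and overlapping windows of Syt6 (chr3:103574995-103575294 and chr3:103575032-103575331). The Syt6 windows share the same half-site and the same core, so each of these matches was counted once per window. A match describes the letters of a window and is no evidence of binding, and Rims2 had no entry.

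As deposited, 4 of the 7 active zone genes fell in hypoxia, which were all 4 RIM genes, and none rose. The split was 3 lower and 2 higher (Bsn and Rab3a) with equal column sums. With quantile normalization it was 4 lower and 2 higher (the same 2). RIM proteins tether vesicles and calcium channels at the release site; Rims1 and Rims2 encode the large multidomain forms, and Rims3 and Rims4 short forms that carry only the C-terminal part. Rims1 had 63.9, 63.9 and 76.0 CPM in hypoxia with T3, 80.6, 87.5 and 78.1 CPM in hypoxia and 147, 134 and 137 CPM in normoxia. The 3 groups did not overlap, and the libraries with T3 were the lowest. Its log2 change in hypoxia against normoxia was -0.76 (SE 0.075, limma adjusted p = 7.8e-05). Rims2 had 14.4, 19.9 and 24.3 CPM in hypoxia with T3, 25.9, 30.0 and 27.0 CPM in hypoxia and 51.2, 46.3 and 51.7 CPM in normoxia. Its groups were separate in the same order, with a log2 change of -0.83 in hypoxia (SE 0.145, limma adjusted p = 0.0019). Rims1 (chr1:22286251-22805994) and Rims2 (chr15:39198261-39684372) span 520 kb and 486 kb.

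The short RIM forms had smaller estimates. Rims3 had 17.2, 15.8 and 17.9 CPM in hypoxia with T3, 19.1, 16.8 and 17.5 CPM in hypoxia and 26.8, 24.4 and 23.1 CPM in normoxia. The 6 hypoxic libraries were all below the normoxic ones and the 2 hypoxic groups overlapped, with a log2 change of -0.45 in hypoxia (SE 0.086, limma adjusted p = 0.0029). Rims4 had 23.1, 20.9 and 23.3 CPM in hypoxia with T3, 21.9, 21.8 and 20.7 CPM in hypoxia and 28.9, 27.4 and 25.3 CPM in normoxia. Its 6 hypoxic libraries were likewise all below the normoxic ones, and its 2 hypoxic groups overlapped. The log2 change in hypoxia was -0.32 (SE 0.077, limma adjusted p = 0.0086).

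The remaining members of this group did not pass in hypoxia. Rab3a, a small GTPase of the vesicle membrane that binds RIM, had 644, 590 and 585 CPM in hypoxia with T3, 535, 523 and 521 CPM in hypoxia and 544, 483 and 501 CPM in normoxia. Hypoxia and normoxia overlapped, and all 3 libraries with T3 lay above both. The giant scaffolds bassoon (Bsn) and piccolo (Pclo) ranged over 352 to 397 and 166 to 194 CPM in hypoxia with T3. In hypoxia Bsn was at 400 to 426 CPM and Pclo at 205 to 248 CPM, and in normoxia Bsn was at 352 to 420 CPM and Pclo at 209 to 321 CPM, so for both genes these 2 groups overlapped.

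**Figure D2:**
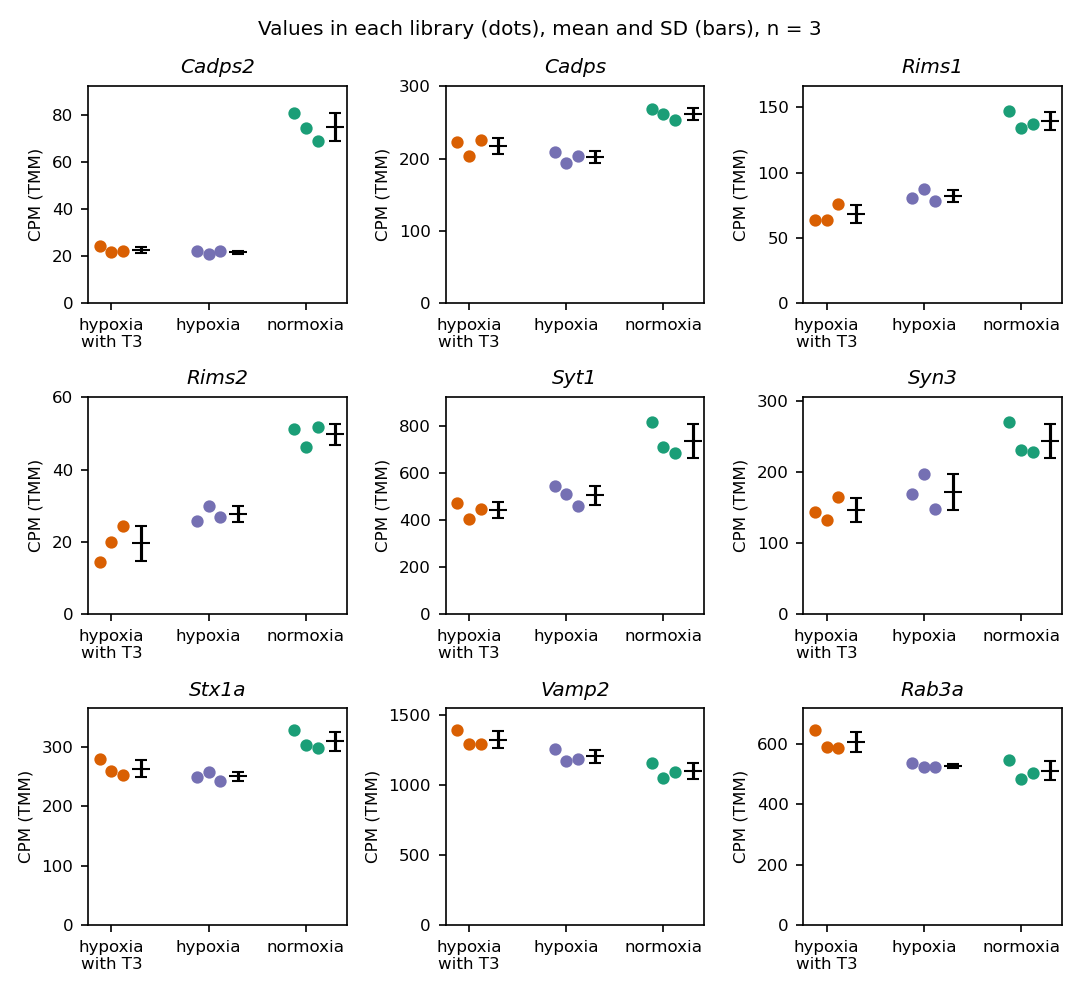
CPM (linear axis from 0) of 9 members in each library: dots are libraries, and the bar beside them is the mean with its SD (n = 3) in hypoxia with T3, hypoxia and normoxia. Cadps2 drops to about the same level in both hypoxic groups, Rims1 and Rims2 form 3 steps, and Vamp2 and Rab3a are highest in hypoxia with T3.

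Of the 10 synaptotagmins that passed the filter, 2 fell in hypoxia and none rose under the scaling as deposited. The balance turned under other scalings, with 1 lower and 5 higher with equal column sums, and 1 and 3 with quantile normalization. Syt1, the sensor of fast release, had 472, 405 and 444 CPM in hypoxia with T3, 542, 509 and 460 CPM in hypoxia and 817, 708 and 682 CPM in normoxia. Every hypoxic library was below every normoxic one, and the hypoxic groups overlapped. The log2 change in hypoxia was -0.54 (SE 0.083, limma adjusted p = 0.00091), which took Syt1 to 0.685 of its normoxia mean. Syt16, an atypical family member that does not bind calcium, had 70.9, 71.1 and 77.5 CPM in hypoxia with T3, 74.0, 81.1 and 72.6 CPM in hypoxia and 92.5, 89.1 and 86.1 CPM in normoxia. The hypoxia and normoxia libraries did not overlap, with a log2 change of -0.23 (SE 0.061, limma adjusted p = 0.015). Without hypoxia 9 or normoxia 1 the call of Syt16 was lost (adjusted p = 0.058 and 0.051).

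Syt11, a vesicle protein that does not bind calcium, had the highest level for its length among the synaptotagmins in both hypoxic groups, at 143 ± 6.39 CPM per kb of exon in hypoxia with T3, 133 ± 2.93 in hypoxia and 124 ± 5.43 in normoxia (SD, n = 3). It had 775, 747 and 709 CPM in hypoxia with T3, 706, 676 and 693 CPM in hypoxia and 665, 612 and 656 CPM in normoxia. These 3 groups did not overlap, but Syt11 did not pass in hypoxia against normoxia (limma adjusted p = 0.14). For Syt13, Syt6 and Vamp2 all hypoxia libraries also lay above all normoxia ones, and these did not pass (limma adjusted p = 0.062, 0.11 and 0.090). That makes 4 members (10.8%) whose hypoxia libraries all lay above the normoxia ones, where 20.7% of all genes did, and 12 members (32.4%) that all lay below, where 27.0% of all genes did. The 12 are the 11 that fell and Unc13c. Syt3, Syt4, Syt5, Syt7 and Syt17 overlapped between hypoxia and normoxia, at means from 4.26 CPM (Syt17 in hypoxia with T3) to 541 CPM (Syt4 in normoxia).

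Among the 7 vesicle phosphoproteins and membrane proteins Syn3 alone fell in hypoxia, and none rose as deposited. With equal column sums 1 was lower and 2 were higher, and with quantile normalization likewise 1 and 2. Synapsins tie vesicles to each other and to actin, and Syn3 encodes the form of early neuronal development. Syn3 had 144, 132 and 165 CPM in hypoxia with T3, 169, 198 and 149 CPM in hypoxia and 271, 232 and 228 CPM in normoxia. The hypoxic libraries were all below the normoxic ones, with a log2 change of -0.50 in hypoxia (SE 0.11, limma adjusted p = 0.0056). The call was lost when no filter on low values was used (adjusted p = 0.056). Exons of Syn3 overlap those of Timp3 by 1733 bases on the other strand.

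Syn1, the most abundant of this group for its length, did not pass in any comparison. It had 828, 753 and 810 CPM in hypoxia with T3, 809, 746 and 736 CPM in hypoxia and 871, 740 and 748 CPM in normoxia, and all groups overlapped. Syp (synaptophysin) and Sv2a, the target of the antiepileptic drug levetiracetam, also overlapped between hypoxia and normoxia. Syp averaged 909 ± 44.4 CPM in hypoxia with T3, 804 ± 29.2 CPM in hypoxia and 779 ± 44.1 CPM in normoxia (SD, n = 3). Sv2a averaged 446 ± 25.2, 404 ± 20.0 and 411 ± 24.7 CPM in the same order. Sv2b ranged over 57.7 to 76.5 CPM in hypoxia with T3, 73.9 to 106 CPM in hypoxia and 102 to 123 CPM in normoxia, with overlap between hypoxia and normoxia (limma adjusted p = 0.087). Syn2 and the low Sv2c, at means of 1.46 to 1.91 CPM, overlapped as well.

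Of the 6 SNAREs and complexins 1 fell in hypoxia and none rose as deposited. The balance turned to 1 lower and 4 higher with equal column sums, and 1 and 3 with quantile normalization. Stx1a, the plasma membrane SNARE, had 279, 258 and 251 CPM in hypoxia with T3, 249, 258 and 243 CPM in hypoxia and 327, 303 and 297 CPM in normoxia. All hypoxic libraries lay below the normoxic ones, and the log2 change was -0.31 (SE 0.055, limma adjusted p = 0.0021). Vamp2, the vesicle SNARE, had the highest level for its length of all members, at 348 ± 15.3 CPM per kb of exon in hypoxia with T3, 316 ± 12.3 in hypoxia and 289 ± 14.5 in normoxia (SD, n = 3). Its libraries were at 1391, 1292 and 1289 CPM in hypoxia with T3, 1257, 1170 and 1183 CPM in hypoxia and 1158, 1049 and 1090 CPM in normoxia, 3 separate steps. Snap25, the other plasma membrane SNARE, ranged over 548 to 557 CPM in hypoxia with T3, 488 to 543 CPM in hypoxia and 513 to 570 CPM in normoxia. Stx1a was thus the 1 core SNARE whose transcript passed as deposited, while Vamp2 and Snap25 did not pass in hypoxia against normoxia. Vamp2 passed as higher in 5 of 21 alternative settings. Among these were equal column sums and quantile normalization (limma adjusted p = 0.00053 and 0.00021). Complexins 1 and 2 (Cplx1, Cplx2) and the low Vamp1, at means of 5.67 to 7.15 CPM, overlapped between hypoxia and normoxia.

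The vesicular glutamate transporters did not pass. Slc17a7 encodes VGLUT1, the main transporter of cortical excitatory terminals. It had 206, 210 and 222 CPM in hypoxia with T3, 204, 206 and 192 CPM in hypoxia and 217, 182 and 208 CPM in normoxia. Slc17a6, which encodes VGLUT2, averaged 22.0 ± 0.909 CPM in hypoxia with T3, 21.9 ± 0.843 CPM in hypoxia and 21.3 ± 1.74 CPM in normoxia (SD, n = 3). Hypoxia and normoxia overlapped for both genes.

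**Figure D3:**
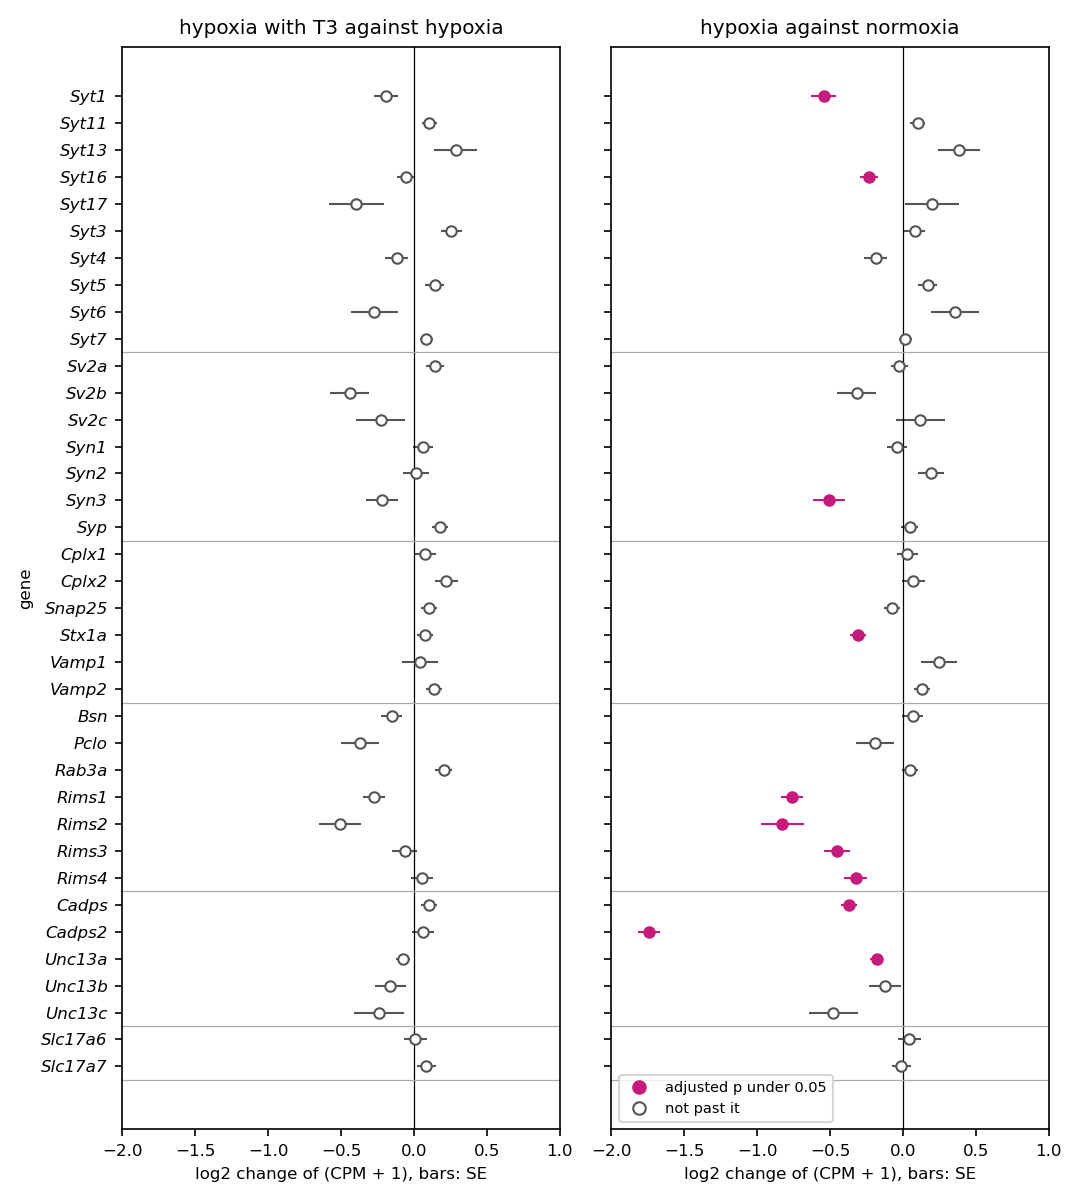
Log2 change of (CPM + 1) for each member, in hypoxia with T3 against hypoxia and in hypoxia against normoxia; bars are the SE of the fit, filled points passed a limma adjusted p of 0.05, and lines divide the roles. Filled points appear only in the panel of hypoxia against normoxia, all of them left of 0.

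The next comparison asks what T3 changed within hypoxia. With T3 added, 0 of 37 members passed the limma adjusted p of 0.05, where 6.48% of all tested genes passed, 2.73% higher and 3.75% lower. At an unadjusted p under 0.05 there were 11 members: Rab3a, Syt3, Syp, Cplx2, Vamp2 and Sv2a with positive estimates, and Rims1, Rims2, Sv2b, Pclo and Syt1 with negative ones. The quasi-likelihood test of edgeR on recovered reads called 1 member, Rab3a, and DESeq2 called 7, of which 3 were higher and 4 lower. Over all genes edgeR called 787 and DESeq2 1728. The median log2 change was 0.04 over the members and -0.01 over all genes.

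Several members missed the threshold by little. Rab3a, with all 3 libraries with T3 above all 3 without, had a log2 change of 0.20 (SE 0.056, limma adjusted p = 0.053). Rims1, with all 3 below, had -0.27 (SE 0.075, limma adjusted p = 0.053). Rims2, also separate, had -0.51 (SE 0.145, limma adjusted p = 0.056). Syt3, a high-affinity sensor, had 63.7, 59.7 and 68.7 CPM in hypoxia with T3 and 49.1, 56.1 and 55.2 CPM in hypoxia. Its libraries were separate, with a log2 change of 0.26 (SE 0.074, limma adjusted p = 0.057). The estimates for Sv2b and Syp were -0.44 and 0.18 (limma adjusted p = 0.064 and 0.075).

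Without hypoxia with T3 13 the fit called 4 members (Rab3a higher, and Rims1, Rims2 and Sv2b lower), without hypoxia 9 it called 2 and without normoxia 1 it called 1. Leaving out any other library gave 0. Over all genes the fits without hypoxia with T3 13, hypoxia 9 and normoxia 1 called 1817, 957 and 742. All 3 libraries with T3 lay above all 3 without it for 11 members (29.7%), where 15.8% of all genes did, namely Syt3, Syt5, Syt7, Syt11, Sv2a, Vamp2, Snap25, Cplx2, Syp, Slc17a7 and Rab3a. They lay below for 4 members (10.8%), Rims1, Rims2, Bsn and Pclo, and likewise for 15.8% of all genes.

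Hypoxia with T3 was also set against normoxia; this comparison uses the same libraries as the other 2, so its values are given beside theirs and not as independent evidence. Here 24 of 37 members (64.9%) passed, where 55.1% of all genes did. Higher were 8 (21.6% of the members, against 25.5% of all genes): Syt3, Syt5, Syt11, Syt13, Vamp2, Cplx2, Syp and Rab3a. Lower were 16 (43.2%, against 29.5% of all genes): the 11 that fell in hypoxia, and Pclo, Sv2b, Syt4, Unc13b and Unc13c. With equal column sums 15 members (40.5%) were higher and 13 (35.1%) lower, where 35% of all genes were higher and 22.1% lower. With quantile normalization 13 members (35.1%) were higher and 15 (40.5%) lower, where 29.6% and 26.7% of all genes were. Cplx2 lost its call with no filter on low values, and Rims4 lost its call with equal column sums and without library 12 of the T3 group. All libraries of hypoxia with T3 lay above all those of normoxia for 9 members (24.3%), where 29.8% of all genes did, and below them for 15 (40.5%), where 33.0% did.

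The synaptotagmins moved both ways here. Syt13, a family member that does not bind calcium, averaged 19.3 ± 3.84 CPM in hypoxia with T3, 15.5 ± 1.52 CPM in hypoxia and 11.7 ± 1.86 CPM in normoxia, and had the greatest increase of the members in hypoxia with T3 against normoxia (log2 change 0.67, limma adjusted p = 0.0025). Syt5, a vesicle calcium sensor, averaged 263 ± 12.2 CPM in hypoxia with T3, 238 ± 13.7 CPM in hypoxia and 212 ± 15.9 CPM in normoxia (log2 change 0.31, limma adjusted p = 0.0020). Syt1 stood at -0.74 in hypoxia with T3 against normoxia and at -0.54 in hypoxia against normoxia. Rims2 stood at -1.33 and Rims1 at -1.03, where hypoxia against normoxia gave -0.83 and -0.76, and Cadps2 at -1.68, where it gave -1.74. All 5 priming factors were lower, of which Unc13b (-0.28, limma adjusted p = 0.042) lost its call in 11 of 21 alternative settings. Syt4, a synaptotagmin of dense-core vesicles, was at -0.30 (limma adjusted p = 0.0070) and lost its call with equal column sums.

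Levels of family members within a library need no scaling between libraries, so ratios of CPM are given for 9 pairs. The pairs were chosen with the values known and are a description. The ratio of Cadps2 to Cadps was 0.104 ± 0.0059 in hypoxia with T3, 0.107 ± 0.0018 in hypoxia and 0.285 ± 0.0144 in normoxia (SD, n = 3). The hypoxic groups overlapped and both lay far below normoxia. The ratio of Rims1 to the short form Rims4 was 3.03 ± 0.25 in hypoxia with T3, 3.82 ± 0.17 in hypoxia and 5.13 ± 0.272 in normoxia. For Syt1 over Syt5 it was 1.67 ± 0.0962 in hypoxia with T3, 2.11 ± 0.0762 in hypoxia and 3.47 ± 0.127 in normoxia. Both ratios formed 3 steps without overlap, as did Rims2 over Rims4, at 0.874 ± 0.220 in hypoxia with T3, 1.29 ± 0.0987 in hypoxia and 1.84 ± 0.186 in normoxia. Syn3 over Syn2 was 0.982 ± 0.0869 in hypoxia with T3, 1.16 ± 0.118 in hypoxia and 1.87 ± 0.0863 in normoxia, with the hypoxic groups overlapping. Sv2b over Sv2a was 0.152 ± 0.0276 in hypoxia with T3, 0.228 ± 0.0404 in hypoxia and 0.278 ± 0.0313 in normoxia, and hypoxia overlapped with normoxia. VGLUT2 over VGLUT1 (Slc17a6 over Slc17a7) was 0.104 ± 0.0052, 0.109 ± 0.0020 and 0.106 ± 0.0117 in the same order, and its hypoxia libraries lay within the range of normoxia. Unc13b over Unc13a was 0.0708 ± 0.0104 in hypoxia with T3, 0.0750 ± 0.0035 in hypoxia and 0.0723 ± 0.0060 in normoxia. Vamp1 over Vamp2 was 0.0054 ± 0.00056 in hypoxia with T3, 0.0057 ± 0.00037 in hypoxia and 0.0052 ± 0.00093 in normoxia. For both of these pairs all groups overlapped, so the hypoxia and normoxia libraries were separate in 5 of the 9 pairs.

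**Figure D4:**
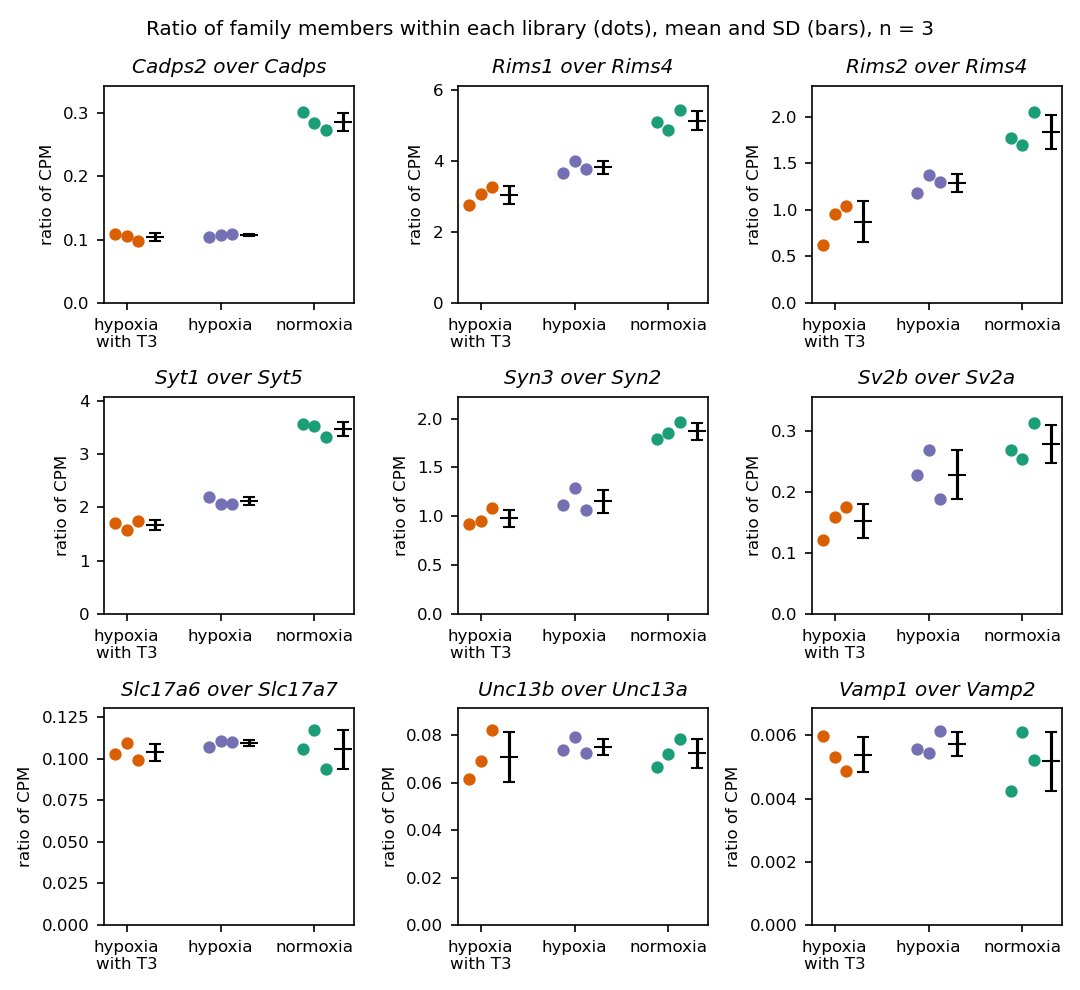
Ratio of the CPM of 2 family members within each library, for the 9 pairs (linear axis from 0): dots are libraries and bars the mean with its SD (n = 3). The ratios of Cadps2 to Cadps, Rims1 and Rims2 to Rims4, Syt1 to Syt5 and Syn3 to Syn2 lie below normoxia in all libraries of both hypoxic groups, while the groups overlap for Slc17a6 to Slc17a7, Unc13b to Unc13a and Vamp1 to Vamp2.

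The members that fell were mostly long genes, a property that was not used to choose the list; the division at 100 kb was made with the values known. By GENCODE M21 gene spans (GRCm38), 13 tested members span more than 100 kb, and 7 of them (53.8%) fell in hypoxia, where 55.3% of all 1951 tested genes of that span fell. Of the 24 shorter members 4 (16.7%) fell, where 12.7% of 10323 genes did. These shares were close to those of all genes of like span. In hypoxia with T3 against normoxia 11 of the 13 long members (84.6%) were lower, where 74.3% of long genes were, and 0 were higher. Of the 24 shorter members 8 (33.3%) were higher and 5 (20.8%) lower, where 29.9% and 21.3% of shorter genes were.

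Across the 37 members Spearman's rho between the log2 change and the span was -0.76 for hypoxia with T3 against normoxia, -0.68 for hypoxia with T3 against hypoxia and -0.57 for hypoxia against normoxia. Over the 12274 tested genes with a span it was -0.52, -0.47 and -0.47. The points share their libraries and the comparisons share groups, so these values are a description. The long Syn2 (147 kb) and Sv2c (178 kb) did not pass in any of the 3 comparisons. The shorter Stx1a (27.6 kb), Rims3 (41.8 kb), Unc13a (47.3 kb) and Rims4 (58.9 kb) fell both in hypoxia and in hypoxia with T3, each against normoxia.

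**Figure D5:**
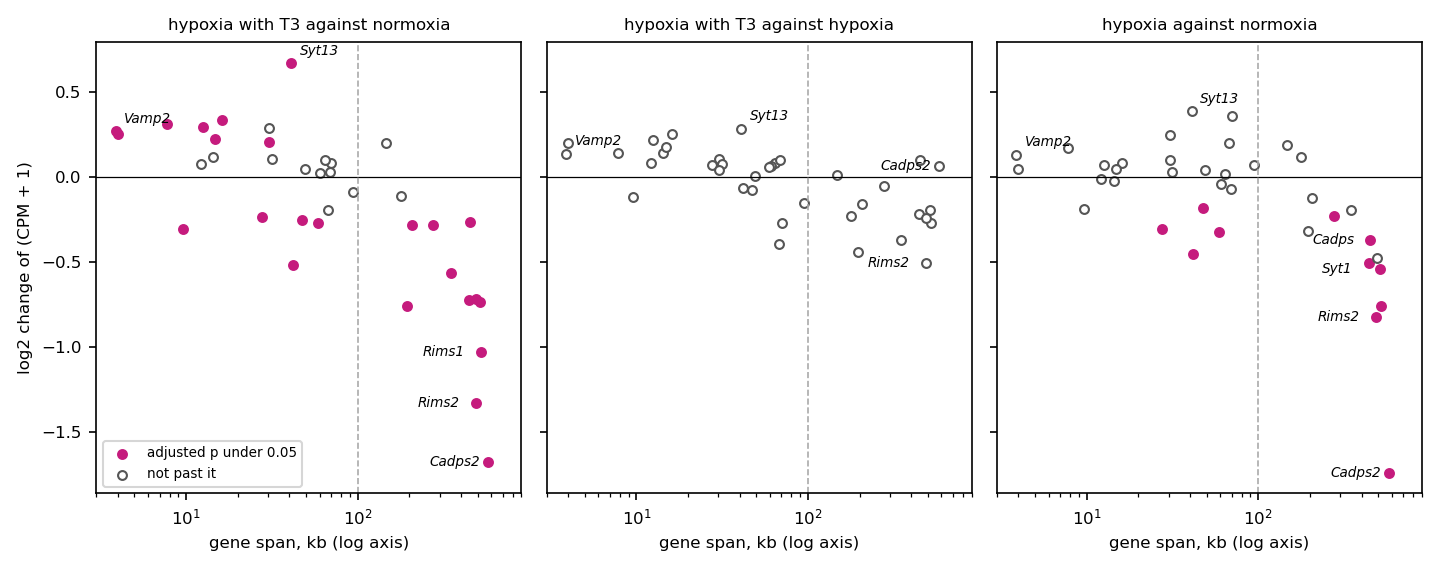
Log2 change of (CPM + 1) of the 37 members against the genomic span of the gene in kb (log axis), in the 3 comparisons; filled points passed a limma adjusted p of 0.05 and the dashed line marks 100 kb. Points to the right of the line lie mostly below 0, and the 8 members higher in hypoxia with T3 than in normoxia are all to its left.

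The other genes of the release pathway, in 6 lists that do not hold the members, are given as counts of tested genes that passed. These lists, too, were drawn up with earlier results known. Together they hold 113 tested genes, of which 39 (34.5%) fell in hypoxia and 5 (4.42%) rose, where 19.3% of all genes fell and 14.3% rose. With equal column sums 19 of the 113 (16.8%) were lower and 31 (27.4%) higher, where 9.53% and 30.7% of all genes were. With quantile normalization 24 (21.2%) were lower and 18 (15.9%) higher, where 16.4% and 17.0% of all genes were. The counts of each list below are to be read against these shares of all genes and its median log2 change against the median of all genes, which was -0.00.

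Of 10 presynaptic calcium channel genes 5 fell in hypoxia and none rose, with a median log2 change of -0.38. The split was 4 lower and 0 higher with equal column sums, and 5 and 0 with quantile normalization. They include the pore-forming subunits of the N-type and P/Q-type channels, Cacna1b (log2 change -0.55, limma adjusted p = 0.00088) and Cacna1a (-0.48, limma adjusted p = 0.0018). Cacna2d1, an auxiliary subunit and the target of gabapentin, averaged 95.7 ± 13.7 CPM in hypoxia with T3, 142 ± 16.7 CPM in hypoxia and 290 ± 2.53 CPM in normoxia (SD, n = 3). Its log2 change was -0.57 in hypoxia with T3 against hypoxia (limma adjusted p = 0.019) and -1.03 in hypoxia against normoxia (limma adjusted p = 6.9e-05).

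Of 21 other active zone and Rab effector genes 7 fell in hypoxia and 1 rose, with a median of -0.07. After scaling to equal column sums 4 were lower and 3 higher, and after quantile normalization 5 and 1. Among those that fell were the ELKS scaffolds Erc1 (-0.58, limma adjusted p = 0.00055) and Erc2 (-0.53, limma adjusted p = 0.00020) and liprin-alpha 2, Ppfia2 (-0.58, limma adjusted p = 0.0011), all partners of RIM at the active zone. Of 22 other SNAREs and SNARE regulators 10 fell and 1 rose, with a median of -0.11. The split was 3 lower and 3 higher with equal column sums, and 4 and 1 with quantile normalization. The calcium-binding regulators Doc2b and Doc2a went opposite ways, with -0.38 (limma adjusted p = 0.0020) and 0.31 (limma adjusted p = 0.010), and Napb, which encodes beta-SNAP, a cofactor of SNARE disassembly, was at -0.26 (limma adjusted p = 0.0024).

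Of 18 other vesicle membrane and transporter genes 3 fell and 2 rose, with a median of -0.03. After scaling to equal column sums 2 were lower and 6 higher, and after quantile normalization 3 and 4. The synaptotagmins Syt9 and Syt10 were at -0.74 (limma adjusted p = 0.0027) and -1.08 (limma adjusted p = 0.0042), and Syt12 at 0.46 (limma adjusted p = 0.028). Syt10 lay near the filter, at means of 1.09 CPM in hypoxia with T3, 0.946 CPM in hypoxia and 3.02 CPM in normoxia. Its estimate in hypoxia against normoxia ran from -1.71 to -0.43 over the alternative settings. Of 26 vesicle endocytosis genes 12 fell in hypoxia and none rose, with a median of -0.15. The split was 6 lower and 9 higher with equal column sums, and 7 and 4 with quantile normalization. Among those that fell were the clathrin adaptor Snap91 (-0.36, limma adjusted p = 0.00023), amphiphysin, Amph (-0.46, limma adjusted p = 0.00025), and dynamin 3, Dnm3 (-0.48, limma adjusted p = 0.0012).

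Of 16 subunits of the proton pump that energises vesicle filling 2 fell and 1 rose, with a median of 0.01. After scaling to equal column sums 0 were lower and 10 higher, and after quantile normalization 0 and 8. As deposited, Atp6v1a was at -0.20 (limma adjusted p = 0.012), Atp6v1c1 at -0.15 (limma adjusted p = 0.033) and Atp6v0b at 0.21 (limma adjusted p = 0.040). With equal column sums the balance of higher and lower calls turned from lower to higher for the vesicle membrane, endocytosis and proton pump lists and became even for the SNARE list. With quantile normalization it turned for the vesicle membrane and proton pump lists and stayed towards lower for the SNARE and endocytosis lists. Of the 18 genes named here for hypoxia against normoxia, 4 lost their call under some settings, Atp6v1c1 in 10, Atp6v0b in 8, Syt12 in 6 and Atp6v1a in 3, and the other 14 passed under every setting that gave a value.

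With T3 added to hypoxia 8 of the 113 genes (7.08%) passed, near the 6.48% of all tested genes. Lin7a (-0.48), Syt9 (-0.68), Cacna2d1 (-0.57) and Cacnb2 (-0.66) were lower, and Lin7b (0.36), Git1 (0.19), Cltb (0.28) and Hspa8 (0.27) were higher, with limma adjusted p between 0.019 and 0.045. Each of these 8 lost its call when library 11 or 12 of the T3 group was left out, and also without hypoxia 7. None of the SNARE and proton pump genes passed.

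Markers of neurons and other cells moved beside these results. In hypoxia 4 of the 8 neuron markers fell (Tubb3, Rbfox3, Dcx and Elavl4) and none rose, where 19.3% of all genes fell and 14.3% rose. In hypoxia with T3 1 was lower than in hypoxia and 3 were lower than in normoxia, and none was higher. Of all genes 3.75% and 29.5% were lower in these comparisons. Most of the drop in the summed level of neuron markers lay in Tubb3. It was at 563 to 838 CPM in hypoxia with T3, 922 to 1357 CPM in hypoxia and 2262 to 2578 CPM in normoxia. The 8 markers of GABAergic neurons gave no call in any comparison, with summed levels of 278 to 434 CPM in hypoxia with T3, 259 to 431 CPM in hypoxia and 259 to 398 CPM in normoxia.

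Markers of other cells had median estimates well above that of all genes in hypoxia against normoxia, though few passed. The median log2 change was 1.01 over the 9 tested astrocyte markers, of which 1 rose (Aldoc, a glycolytic enzyme). It was 0.97 over the 8 markers of the oligodendrocyte lineage, of which 1 rose, and 0.66 over the 7 tested markers of cycling progenitors, of which none passed. In hypoxia with T3 against hypoxia these medians were 0.07, 0.02 and 0.08 in the same order. The summed oligodendrocyte lineage markers came to 133 to 189 CPM in hypoxia with T3, 79.7 to 213 CPM in hypoxia and 41.0 to 144 CPM in normoxia. Those of cycling progenitors came to 69.4 to 128 CPM in hypoxia with T3, 42.6 to 131 CPM in hypoxia and 11.9 to 97.3 CPM in normoxia. The groups overlapped in all 3 sums, and each sum was lowest in hypoxia 7 among the hypoxia libraries and in normoxia 1 among the normoxia libraries. In hypoxia against normoxia 12 members were lower and 0 higher without hypoxia 7, and 11 lower and 3 higher without normoxia 1. The part of cell composition in the changes of the release machinery was not tested.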

How the data were processed

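RNA of primary mouse cortical neurons was measured in 9 libraries, 3 for each of hypoxia with T3, hypoxia and normoxia. The deposited values are a signal the authors scaled, TMM-normalized CPM per gene symbol. The tools and build listed in the submitters' processing notes are mm10, RSEM 1.2.15, Bowtie2 2.1.0 and edgeR without a version; annotation, filters and strand setting are not given in the sources used here. Library groups were taken from the column headers; 1 unnamed column with 4 numbers was not used.

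Rows above 1 in at least 3 of the 9 libraries were tested in R 4.3.3 with limma 3.58.1 (all 9 libraries, variance trend) on log2(value + 1), two-sided, with Benjamini-Hochberg adjustment over all 12923 rows and a threshold of 0.05. Fold changes on this scale understate those of low genes. Means with SD were taken on the deposited scale. Symbols turned into dates (27) were left as they are.

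In each library at least 99.89% of values were whole multiples of that of 1 read (tolerance 0.01 reads; 35 rows off, no member), so whole reads were recovered, and edgeR 4.0.16 and DESeq2 1.42.0 were run on them as alternatives. Both tests estimate the spread between the libraries of a group, which could be technical.

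The members, gene lists and tests were chosen with earlier results of these data known. Values of every library are given for members past the threshold in hypoxia or with T3 in hypoxia, and for the member of highest level per kb in each role; of each pathway list up to 3 genes with the smallest adjusted p are named. Values of Syt2, Syt3 and the marker genes were given for other reasons, after they were seen. Gene spans and exon lengths are from GENCODE M21 (GRCm38). Stx4 and Vamp7 matched no row, and Tspoap1 was matched under its older symbol Bzrap1.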

Additional observations from a re-analysis of the deposited data

How the results depend on the processing

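Each result was recomputed under 21 settings: other pseudocounts (0.1 and 5), a filter at a mean of at least 5 or none, only the 2 groups compared, 3 other scalings, no variance trend, library weights, edgeR, DESeq2, and each of the 9 libraries left out. Of the 11 members lower in hypoxia than in normoxia 7 passed under all 21. Of the 24 called in hypoxia with T3 against normoxia 20 passed under every setting that gave a value, which for Unc13c were 20 settings. No log2 change with an unadjusted p under 0.05 changed sign. Of the 44 calls in the pathway lists considered for naming 32 passed under every setting that gave a value and none changed sign.

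The count of members called in hypoxia against normoxia (11) was 21 with equal column sums and 20 with quantile normalization, and 10 to 14 with 1 library left out. For hypoxia with T3 against hypoxia (0) it was 4 with a mean of at least 5, 2 with equal column sums, 3 with quantile normalization, 9 with library weights (2 higher, 7 lower), 1 with edgeR, 7 with DESeq2 and 0 to 4 with 1 library left out. For hypoxia with T3 against normoxia (24) it was 22 to 26 with 1 library left out. Over all genes hypoxia against normoxia (4343) gave 2889 with no filter and 2959 to 4372 with 1 library left out, and hypoxia with T3 against normoxia (7117) gave 5957 to 7120. Hypoxia with T3 against hypoxia (838) gave 21 with no filter, 275 with only the 2 groups compared, 234 with no variance trend, 3050 with library weights, 1728 with DESeq2 and 31 to 1817 with 1 library left out. The count was lowest without hypoxia with T3 12 (31) and highest without hypoxia with T3 13 (1817); it was 46 without hypoxia with T3 11, 88 without hypoxia 7, 43 without hypoxia 8 and 455 without normoxia 2. The cause was not tested. With equal column sums the calls over all genes in hypoxia against normoxia were 3973 higher and 1232 lower, and those in hypoxia with T3 against normoxia 4527 higher and 2856 lower.

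No paired analysis was possible because the headers of the hypoxic libraries carry numbers that the titles do not use. With 3 libraries a group, changes of members near the filter (Unc13c, Sv2c) could not be measured closely.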
